A study of Mus musculus with 48 samples.

Results

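These are the 54 protein coding genes of the mouse cerebellum that were higher after rotarod training than at rest and also higher in Chd4 conditional knockout (cKO) mice than in wild type (WT) mice. They were chosen from the authors' deposited gene tables of both comparisons by the direction of the differences, after a list of gene families and single symbols was left out. The tables list 6094 genes in either comparison, 322 genes in both and 301 protein coding genes in both. Of these, 69 protein coding genes were higher in both, and the list of symbols took out 15 of them (among them Fos, Fosl2, Dusp1, Dusp5, Dusp8, Spry4 and Zfp36). With the same gene type and symbols, 114 genes rose after rotarod and fell in cKO, 51 fell after rotarod and rose in cKO, and 36 were lower in both. A further 6 genes higher in both were not protein coding.

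Chd4 encodes the ATPase of the NuRD complex, which remodels nucleosomes and removes acetyl groups from histones, and is known for shutting down active promoters and enhancers. Activity-regulated genes are switched on for a short time when neurons fire, first the immediate early transcription factors and then the effectors that act at synapses and in signalling. In the cerebellum, granule neurons are by far the most abundant cells and carry much of the input during motor learning.

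The study measured polyadenylated RNA in cerebella of postnatal days 27 to 28 in 4 groups of 4 libraries. Rotarod libraries came from WT mice trained to stay on a rotating rod, and rest libraries from WT mice kept in the home cage. The cKO libraries came from Chd4 cKO mice, and the WT libraries from WT mice of the same age, with no training named for either. The labels do not give the promoter of the Cre driver, the cells in which Chd4 was deleted, the time from training to dissection, or whether each library is a separate animal, so the spread between libraries may be in part technical. No group is both trained and cKO.

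Chd4 itself checked the genotype labels. It stood at 7.94 ± 0.08 log2 CPM in cKO libraries, against 8.38 ± 0.06 in WT libraries (SD, n = 4 each), and the cKO libraries (7.90 to 8.06) did not overlap the WT libraries (8.31 to 8.45). The cKO level was 0.739 of the WT level, in tissue in which not every cell need carry the deletion. CPM are reads scaled to a common library size (counts per 1 M reads), and a difference of log2 CPM is a log2 fold change. Depth recovered from the low values was 13.7 to 16.7 M reads in rotarod and rest libraries, and 13.7 to 15.6 M reads in cKO and WT libraries. Granule neuron genes fit the labelled tissue: Gabra6 was at 9.60 ± 0.06 log2 CPM in cKO libraries and 9.40 ± 0.03 in WT libraries, and Cbln3 at 9.94 ± 0.04 in cKO libraries and 10.5 ± 0.06 in WT libraries (SD, n = 4 each). These genes are not in the rotarod table, which holds called genes only. In whole tissue, fewer cells of a type and less RNA per cell cannot be told apart.

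Each table lists genes that passed the authors' test at an adjusted p under 0.05, so all 54 genes passed it in both comparisons. Because both differences chose the genes, their values are given as a description, with no test. Over all features tested, 2.06% were listed as higher after rotarod and 11.0% as higher in cKO, and 3.38% and 20.3% were listed in either direction. The 54 genes are 12.1% of the 448 genes higher with training and 2.25% of the 2400 genes higher in cKO, counted over protein coding genes with the same symbols left out. The median difference was 0.43 log2 CPM for rotarod minus rest (1.35-fold) and 0.36 for cKO minus WT (1.28-fold). Over all listed higher genes it was 0.44 after rotarod and 0.53 in cKO. Most of the differences were small: 6 genes reached 2-fold after rotarod, 4 reached it in cKO, and 9 had a difference of at least 0.5 in both comparisons. Each of these counts includes Gm8730, whose values rest on a few libraries and give no usable fold. With 5 CPM added before the log, the differences of 11 genes after rotarod and 10 of these in cKO shrank by over 1.5 times (Sytl1, Gm8730, Stac3, Cebpb, Fndc8, Gpr3, Tm6sf2, Dok3, Dnd1, Il1r1 and, after rotarod alone, P4ha2), to 0.26 to 0.89 after rotarod and 0.17 to 1.24 in cKO. With recentred libraries, 6 small differences after rotarod and 21 in cKO shrank as much, to 0.15 to 0.17 after rotarod and 0.07 to 0.19 in cKO.

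All rotarod libraries lay above all rest libraries for 45 of the 54 genes, where 83.6% of all listed higher genes did so. All cKO libraries lay above all WT libraries for 42 genes, where 82.4% of all listed higher genes did so. Both held for 37 genes, and for 17 genes when each library was recentred on the median of the genes listed in its table. The share of other genes for which both held was not computed. The counts of overlap in the role groups below are to be read beside the 83.6% and 82.4%. Roles were assigned after gene names were seen. More listed genes were higher than lower (555 against 353 after rotarod, 2990 against 2518 in cKO), so recentring can also remove part of the differences. As deposited, Gm8730, Gcn1l1, Btg2 and Tmem28 overlapped in both comparisons. The difference was larger after rotarod for 33 genes and larger in cKO for 21, and the differences of 16 genes lay within 0.1 of each other. Across the 54 genes, which share their libraries, the differences had a Pearson correlation of 0.73, and of 0.27 over the 52 genes without Gm8730 and Sytl1. Genes were chosen by both differences being positive, so these correlations describe the chosen genes only. Just inside the rule were Phf21b and Phf23, with rotarod differences of 0.23 and 0.24, and Usp10 and N4bp1, both with a cKO difference of 0.17. Just outside it were Mtus1 and Ubn1, at -0.16 each for cKO minus WT, and Pde4b and Rnmt, at -0.25 and -0.26 for rotarod minus rest.

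**Figure D1:**
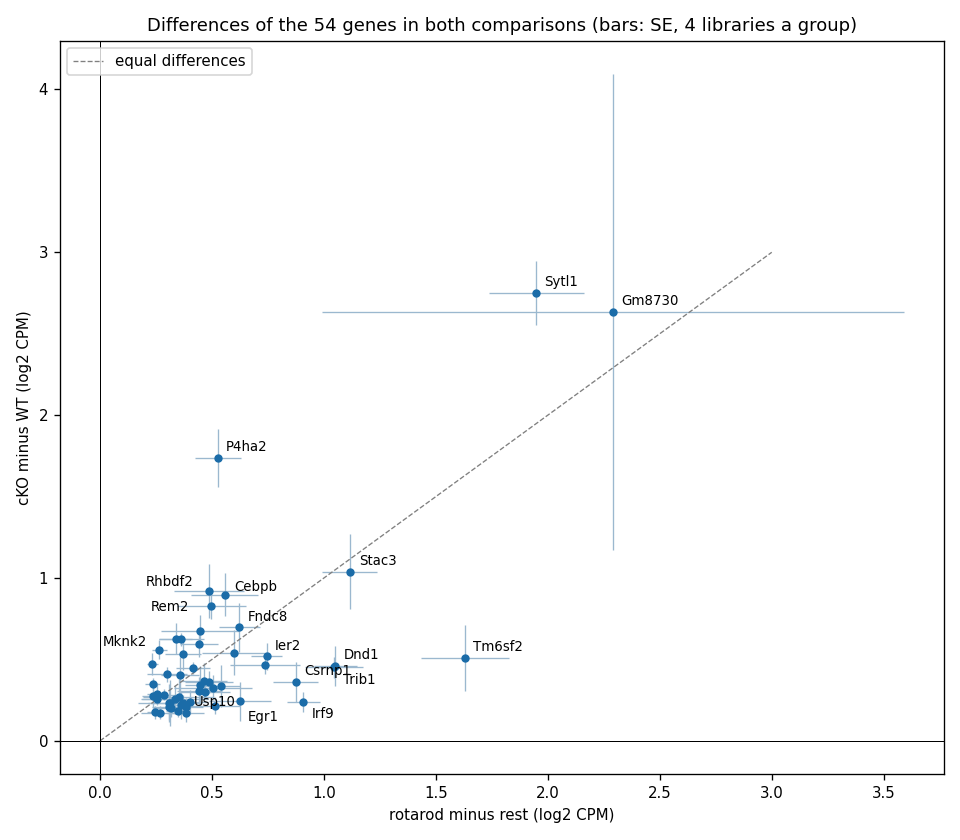
Difference of each of the 54 genes for rotarod minus rest (x axis, log2 CPM) and cKO minus WT (y axis, log2 CPM), with standard errors over 4 libraries a group and a dashed line of equal differences. Sytl1 and Gm8730 stand apart at the upper right, P4ha2 lies well above the line, Tm6sf2 and Irf9 lie well below it, and most genes crowd below 0.7 on both axes.

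Values per library are given below in the order of the table's columns, which are 3, 4, 7 and 8 for rotarod, 1, 2, 5 and 6 for rest, and 1 to 4 for cKO and for WT. All are log2 CPM unless reads are named, and every mean and difference is over 4 libraries a group.

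Transcription factors and immediate early genes made up 10 of the 54. Their differences ran from 0.32 to 0.91 after rotarod and from 0.20 to 0.90 in cKO, with medians of 0.54 and 0.28, and 5 of the 10 were free of overlap in both comparisons. Egr1, a zinc finger transcription factor and classical marker of neuronal activity, had 6.55, 6.58, 6.71 and 6.48 in rotarod libraries, against 6.12, 6.13, 5.58 and 5.98 in rest libraries. Egr1 had 6.01, 5.96, 5.64 and 5.66 in cKO libraries, against 5.61, 5.74, 5.56 and 5.39 in WT libraries. Every rotarod library was above every rest library, while cKO libraries 3 and 4 lay within the WT range, and the differences were 0.63 ± 0.14 after rotarod and 0.24 ± 0.12 in cKO (SE).

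Ier2, a nuclear protein induced as an immediate early gene, had 4.11, 4.18, 4.23 and 4.39 in rotarod libraries, against 3.56, 3.49, 3.48 and 3.40 in rest libraries. Ier2 had 4.10, 4.15, 4.03 and 3.99 in cKO libraries, against 3.67, 3.66, 3.48 and 3.38 in WT libraries. The groups were well apart in both comparisons, with differences of 0.74 ± 0.07 after rotarod and 0.52 ± 0.08 in cKO (SE). Csrnp1, a cysteine and serine rich nuclear protein that can activate transcription, had 3.70, 3.66, 3.95 and 4.06 in rotarod libraries, against 2.94, 2.94, 3.04 and 2.95 in rest libraries. Csrnp1 had 3.38, 3.79, 3.55 and 3.56 in cKO libraries, against 3.45, 3.25, 3.09 and 3.05 in WT libraries. The rest libraries were tight and far below the rotarod libraries, whereas WT library 1 was above cKO library 1.

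Cebpb, a leucine zipper transcription factor of inflammation and memory, had 2.46, 2.58, 2.12 and 2.39 in rotarod libraries, against 1.82, 1.57, 1.80 and 2.12 in rest libraries. Cebpb had 2.47, 2.45, 2.08 and 2.72 in cKO libraries, against 1.55, 1.60, 1.47 and 1.51 in WT libraries. The third rotarod and the last rest library met at the same level, while the cKO and WT libraries were clear of each other, with differences of 0.56 ± 0.15 and 0.90 ± 0.13 (SE). Btg2, an antiproliferative protein that promotes deadenylation of mRNA, had 4.48, 4.35, 4.61 and 4.67 in rotarod libraries, against 4.0, 4.06, 4.57 and 4.14 in rest libraries. Btg2 had 3.94, 3.87, 4.14 and 4.16 in cKO libraries, against 3.75, 3.64, 3.79 and 3.90 in WT libraries. One high rest library and one high WT library brought the groups into overlap, with differences of 0.34 ± 0.15 and 0.26 ± 0.09 (SE).

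Irf9, the DNA-binding partner of the STAT proteins in interferon signalling, leaned to training. It averaged 4.61 ± 0.04 in rotarod libraries and 3.70 ± 0.14 in rest libraries, and 4.53 ± 0.09 in cKO libraries and 4.29 ± 0.09 in WT libraries (SD, n = 4 each). Mafg, a small Maf partner of stress-response leucine zipper factors, differed by 0.47 after rotarod and 0.30 in cKO. Ifrd1 and Ifrd2, related regulators first found as induced genes, differed by 0.52 and 0.37 after rotarod and by 0.22 and 0.53 in cKO. Tsc22d2, of the TSC22 family, differed by 0.32 after rotarod and by 0.20 in cKO. None of these 5 genes overlapped between groups after rotarod, and in cKO only Tsc22d2 did.

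The promoters of 42 of the 54 genes were found in the RefSeq table by gene identifier, each as a window of 250 bases before to 50 bases after the annotated start (build GRCm38.p6). Windows from 4 genes are shown because a match to 1 of 4 chosen sites lies wholly before the start. The chosen sites are of factors known for activity-dependent transcription. They include the cAMP response element bound by CREB and the AP-1 site bound by Fos and Jun. The others are the CArG box bound by SRF and the site bound by Nr4a receptors. Matches to the EGR site are not shown. Each window is printed on the gene's strand up to the start or part of the way to it, with the match in capitals.
Btg2, chr1:134079268-134079367, minus strand, cAMP response element: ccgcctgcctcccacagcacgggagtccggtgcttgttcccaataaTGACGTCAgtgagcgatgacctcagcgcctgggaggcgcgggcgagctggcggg
Csrnp1, chr9:119983024-119983171, minus strand, 2 AP-1 sites: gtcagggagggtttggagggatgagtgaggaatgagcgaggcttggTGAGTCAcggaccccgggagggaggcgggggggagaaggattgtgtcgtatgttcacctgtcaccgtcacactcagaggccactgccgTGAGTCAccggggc
Mknk2, chr10:80676294-80676371, minus strand, CArG box: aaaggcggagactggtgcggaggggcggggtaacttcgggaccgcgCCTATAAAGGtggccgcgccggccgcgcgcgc
Irf9, chr14:55604398-55604497, plus strand, Nr4a site on the other strand: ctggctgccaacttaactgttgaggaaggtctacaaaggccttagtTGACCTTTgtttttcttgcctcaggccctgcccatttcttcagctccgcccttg
The matches begin 166 bases before the start in Btg2, 102 and 14 bases before it in Csrnp1, 32 bases before it in Mknk2 and 135 bases before it in Irf9. The Csrnp1 and Irf9 windows belong to 1 of 4 and 1 of 2 promoters that RefSeq gives these genes. The CArG box of Mknk2 contains the letters of a TATA box, so the match could be read as either.

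Motifs were searched on both strands over the whole windows. Without a window, and so not searched, were 12 genes: Egr1, Ier2, Trib1, Tsc22d2, Stac3, Tm6sf2, Dnd1, Rhbdf2, Pag1, Spata2l, Tmem64 and Gm8730. The shares of members below leave these genes out and say nothing about their sites. The cAMP response element TGACGTCA was found in 1 of 42 members' promoters (2.38%), against 2.03% of 27025 genes with a promoter in the table. The AP-1 site TGANTCA was in those of Atp5g1, Csrnp1, Gpr3 and Usp10, which is 9.52% of members and 8.97% of all genes. The EGR site GCGGGGGCG was in those of Il1r1, Ptpn1 and Unc119b (7.14% of members, 3.31% of all genes), and the E-box CACGTG in those of Atp5g1, Bcorl1, Coq10b, Fam179b, Mafg and Slx4 (14.3% of members, 8.09% of all genes). The Nr4a site AAAGGTCA and the CArG box were each in 1 member (2.38%), against 1.70% and 1.81% of all genes. No match to the glucocorticoid response element or the heat shock element was in the members' windows, and 0.537% and 0.662% of all genes had one. These are matches of letters and were not tested. The members' promoters hold more CG dinucleotides than those of all genes (median observed over expected CpG ratio 0.75 against 0.39). Motif shares among promoters of like composition were not computed.

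What most of the promoters share is a high content of CG dinucleotides. The observed over expected CpG ratio had a median of 0.75 over the 42 members, against 0.78 over the 360 genes higher with training, 0.67 over the 2002 genes higher in cKO, 0.56 over 17492 protein coding genes and 0.39 over all genes. A ratio above 0.6, the usual mark of a CpG island promoter, was found in 30 of 42 members (71.4%), in 73.6% of the genes higher with training, in 58.6% of those higher in cKO and in 47.1% of protein coding genes. The median GC content was 64.5% in members, 63.7% in genes higher with training and 56.3% in protein coding genes.

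Receptors and membrane signalling proteins made up 8 of the 54. Their differences ran from 0.31 to 0.74 after rotarod and from 0.21 to 0.92 in cKO. Gpr3, an orphan receptor that raises cyclic AMP without a ligand, had 3.43, 3.57, 3.41 and 3.08 in rotarod libraries, against 2.97, 2.88, 2.72 and 2.51 in rest libraries. Gpr3 had 3.34, 3.42, 3.35 and 3.47 in cKO libraries, against 3.25, 2.76, 2.63 and 2.78 in WT libraries. The groups did not overlap, but the last rotarod library and the first WT library came close to the other group, and the differences were 0.60 ± 0.14 and 0.54 ± 0.14 (SE).

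Rgs2, which speeds GTP hydrolysis by Gq proteins and ends receptor signals, had 4.09, 4.10, 4.03 and 4.24 in rotarod libraries, against 3.64, 3.63, 3.86 and 3.91 in rest libraries. Rgs2 had 4.44, 4.81, 4.72 and 4.58 in cKO libraries, against 4.43, 4.31, 4.10 and 4.09 in WT libraries. The lowest cKO library only just cleared the highest WT library. Rem2, a small GTPase that inhibits voltage-gated calcium channels, had 3.96, 3.91, 4.33 and 4.32 in rotarod libraries, against 3.56, 3.77, 3.83 and 3.37 in rest libraries. Rem2 had 4.39, 4.40, 4.37 and 4.26 in cKO libraries, against 3.56, 3.45, 3.72 and 3.37 in WT libraries. The cKO libraries lay close together and far above the WT libraries, by 0.83 ± 0.08, while the rotarod libraries were spread, with a difference of 0.50 ± 0.15 (SE).

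Rhbdf2, an inactive rhomboid that brings the protease ADAM17 to the cell surface, had 4.24, 3.99, 4.19 and 4.50 in rotarod libraries, against 3.66, 4.08, 3.55 and 3.68 in rest libraries. Rhbdf2 had 4.35, 4.55, 4.57 and 4.37 in cKO libraries, against 3.13, 3.69, 3.86 and 3.49 in WT libraries. It overlapped after rotarod, where the second rotarod library was below the second rest library, and was clear in cKO. Dok3, an adaptor of tyrosine kinase signalling, had 3.25, 3.07, 2.78 and 2.70 in rotarod libraries, against 2.21, 2.47, 2.07 and 2.10 in rest libraries. Dok3 had 3.44, 3.27, 3.24 and 3.41 in cKO libraries, against 2.91, 2.82, 2.90 and 2.87 in WT libraries. The groups did not overlap, and the difference was 0.74 ± 0.16 after rotarod and 0.46 ± 0.05 in cKO (SE).

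The other 3 of these genes are a cytokine receptor, an adaptor and a receptor of myelin proteins. Il1r1, the signalling receptor of interleukin 1, differed by 0.51 after rotarod and 0.33 in cKO. Pag1, a membrane adaptor that recruits the kinase Csk, differed by 0.42 and 0.45. Rtn4r, the Nogo receptor that restrains axon growth, differed by 0.31 after rotarod and 0.21 in cKO, where its libraries overlapped.

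Kinases, pseudokinases and phosphatases made up 5 of the 54. None of the 5 overlapped in either comparison, beside 83.6% (rotarod) and 82.4% (cKO) of all listed higher genes without overlap. Trib1, a pseudokinase that guides C/EBP factors to degradation, had 4.87, 4.93, 4.86 and 5.04 in rotarod libraries, against 4.0, 4.17, 3.71 and 3.64 in rest libraries. Trib1 had 4.88, 4.90, 4.83 and 4.88 in cKO libraries, against 4.45, 4.59, 4.33 and 4.32 in WT libraries. Its differences were 1.05 ± 0.13 after rotarod and 0.45 ± 0.07 in cKO (SE), and the rotarod and the cKO libraries were tighter than those of rest and WT. Mknk2, a kinase downstream of MAP kinases that phosphorylates the cap-binding translation factor, differed by 0.26 after rotarod and 0.56 in cKO. Ptpn3, a tyrosine phosphatase at the membrane skeleton, differed by 0.36 and 0.62. Prkd2, a protein kinase D, differed by 0.44 and 0.31, and Ptpn1, a tyrosine phosphatase of the endoplasmic reticulum that acts on the insulin receptor, by 0.24 and 0.18.

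**Figure D2:**
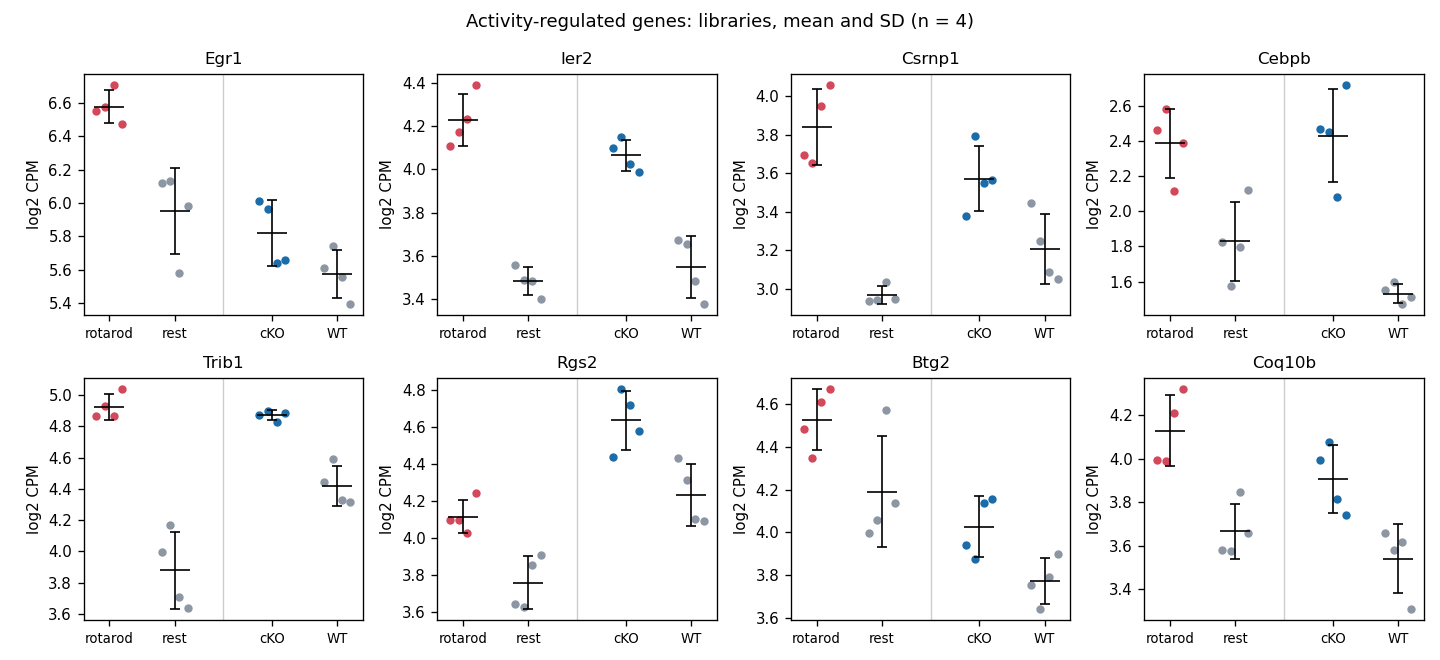
Log2 CPM of 8 activity-regulated genes in each library, with the mean and SD of 4 libraries for rotarod, rest, cKO and WT. Ier2, Trib1, Rgs2 and Coq10b are apart in both comparisons, Egr1 and Csrnp1 are apart after rotarod and overlap in cKO, Cebpb is apart in cKO and overlaps after rotarod, and Btg2 overlaps in both.

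Sytl1 stood out among the 8 genes of trafficking, the cytoskeleton and muscle. It encodes a synaptotagmin-like protein that binds Rab27 on secretory vesicles. Sytl1 had 1.46, 1.55, 1.34 and 1.42 in rotarod libraries, against -0.58, -0.05, -0.35 and -1.04 in rest libraries. In reads, these were 44, 44, 37 and 42 in rotarod libraries and 9, 12, 9 and 5 in rest libraries. Sytl1 had 3.41, 3.56, 3.27 and 3.41 in cKO libraries, against 0.95, 0.72, 0.85 and 0.12 in WT libraries. In reads, these were 144, 173, 132 and 163 in cKO libraries and 27, 21, 26 and 14 in WT libraries. The groups lay far apart in both comparisons, by 1.95 ± 0.21 after rotarod (3.86-fold) and 2.75 ± 0.20 in cKO (6.74-fold, SE), although rest and WT libraries held few of its reads. These sizes depend on how low values are treated: with 1 CPM added before the log the Sytl1 difference was 1.12 after rotarod and 2.17 in cKO, and with 5 CPM added it was 0.43 and 1.24.

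Stac3, an adaptor of excitation-contraction coupling in skeletal muscle, had 3.40, 3.65, 3.31 and 3.59 in rotarod libraries, against 2.35, 2.13, 2.54 and 2.48 in rest libraries. Stac3 had 3.41, 3.23, 3.84 and 3.78 in cKO libraries, against 2.04, 2.47, 2.84 and 2.75 in WT libraries. It was near 2-fold higher in both, by 1.11 ± 0.12 after rotarod and 1.04 ± 0.23 in cKO (SE), with no overlap. Beside it, a list of 18 skeletal muscle genes that holds no member had 1 gene higher after rotarod (Ryr1) and 7 higher in cKO, with none lower in either. The summed CPM covers Ryr1 alone for rotarod and rest and the 7 other genes for cKO and WT. Sums therefore cannot be set against each other across the comparisons. The sum was 86.1 to 101 in rotarod libraries and 69.5 to 88.2 in rest libraries, and 73.7 to 81.1 in cKO libraries and 15.7 to 20.9 in WT libraries. The part of muscle genes in the Stac3 difference was not tested.

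The remaining genes of this group had smaller differences. Nbeal2, a BEACH protein needed for platelet granules, differed by 0.34 after rotarod and 0.63 in cKO, and Sft2d1, of a family of Golgi vesicle proteins, by 0.44 and 0.34. Plekhm1, a Rab7 effector in lysosome fusion, differed by 0.40 and 0.24. Camsap1, which caps the minus ends of microtubules, differed by 0.28 in both comparisons. Unc119b, a carrier of lipid-modified proteins to cilia, differed by 0.24 and 0.27, and Fam179b, a tubulin-binding protein of cilia, by 0.26 in both. Among all 8 genes of this group, only Fam179b overlapped after rotarod and none overlapped in cKO.

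Metabolic and mitochondrial genes made up 5 of the 54. None of these overlapped in either comparison, beside the same 83.6% and 82.4% of all listed higher genes without overlap. P4ha2, a prolyl hydroxylase subunit of collagen synthesis, had 3.23, 3.49, 3.04 and 3.23 in rotarod libraries, against 2.69, 2.82, 2.74 and 2.62 in rest libraries. P4ha2 had 5.22, 5.09, 5.30 and 5.22 in cKO libraries, against 3.41, 3.01, 3.71 and 3.76 in WT libraries. It leaned to cKO, with a difference of 1.74 ± 0.18 there (3.34-fold) and 0.53 ± 0.10 after rotarod (SE). Tm6sf2, a membrane protein of lipid export known from liver, had 3.46, 3.62, 3.43 and 3.32 in rotarod libraries, against 1.98, 2.10, 1.94 and 1.27 in rest libraries. Tm6sf2 had 2.95, 2.84, 2.99 and 3.07 in cKO libraries, against 1.90, 2.66, 2.80 and 2.46 in WT libraries. It leaned to training, with 1.63 ± 0.20 (3.09-fold) after rotarod and 0.51 ± 0.20 in cKO (SE), where WT library 1 was low: without it the cKO difference was 0.32.

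Coq10b, a coenzyme Q binding protein of mitochondria that is also induced by neuronal activity, had 4.0, 3.99, 4.21 and 4.32 in rotarod libraries, against 3.58, 3.58, 3.85 and 3.66 in rest libraries. Coq10b had 4.0, 4.08, 3.82 and 3.74 in cKO libraries, against 3.66, 3.58, 3.62 and 3.31 in WT libraries. The groups were apart, by 0.46 ± 0.10 and 0.37 ± 0.11 (SE), with little room between the lowest cKO and the highest WT library. Atp5g1, which encodes the c subunit of ATP synthase, differed by 0.49 after rotarod and 0.36 in cKO. Mat2a, which makes the methyl donor S-adenosylmethionine, differed by 0.35 and 0.19.

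Genes of RNA binding, translation, chaperones and ubiquitin made up 6 of the 54, and 2 of them were free of overlap in both comparisons. Dnajb4, a cochaperone of Hsp70, had 5.63, 5.71, 5.62 and 5.52 in rotarod libraries, against 5.27, 5.21, 5.22 and 5.29 in rest libraries. Dnajb4 had 5.69, 5.82, 5.83 and 5.76 in cKO libraries, against 5.58, 5.44, 5.53 and 5.62 in WT libraries. It did not overlap, with differences of 0.37 ± 0.04 and 0.23 ± 0.05 (SE). Dnd1, an RNA-binding protein known from germ cells, differed by 1.05 ± 0.10 after rotarod and 0.46 ± 0.12 in cKO (SE). Mex3b, an RNA-binding protein with KH domains, differed by 0.45 and 0.67, and 2 of its rotarod libraries lay below the highest rest library. Gcn1l1, the ribosome partner that activates the stress kinase GCN2, differed by 0.35 after rotarod and 0.27 in cKO, with overlap in both. N4bp1, an RNase that binds NEDD4, differed by 0.27 and 0.17, and Usp10, a deubiquitinase, by 0.38 and 0.17.

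Chromatin and DNA repair proteins made up 4 of the 54. Bcorl1, a transcriptional corepressor, differed by 0.54 after rotarod and 0.34 in cKO, and Pcgf6, a Polycomb ring finger protein, by 0.36 and 0.22. Phf21b, a PHD finger protein, differed by 0.23 and 0.47, and Slx4, a scaffold for DNA repair nucleases, by 0.30 and 0.41. The rotarod libraries of all 4 were above those of rest, while the cKO and WT libraries of Bcorl1 and Pcgf6 overlapped. A list of 15 NuRD complex genes had 0 genes in the rotarod table and 5 higher and 2 lower genes in cKO, and no member belongs to it.

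The last 8 genes have no common role. Fndc8, with a fibronectin domain, had 2.41, 2.31, 2.43 and 2.39 in rotarod libraries, against 1.96, 1.54, 1.77 and 1.77 in rest libraries. Fndc8 had 2.73, 2.57, 2.72 and 2.69 in cKO libraries, against 1.87, 1.85, 2.42 and 1.79 in WT libraries. It was apart in both, by 0.62 ± 0.09 and 0.70 ± 0.15 (SE), with WT library 3 far above the other WT libraries. Spata2l differed by 0.44 after rotarod and 0.59 in cKO, Phf23 by 0.24 and 0.35, and AU022252 by 0.25 and 0.29. Zswim6, a zinc finger protein, differed by 0.31 and 0.24, and the cKO value was 0.14 without WT library 3. The membrane proteins Tmem64 and Tmem28 differed by 0.38 and 0.31 after rotarod and by 0.21 and 0.23 in cKO, and the Tmem28 value in cKO was 0.14 without cKO library 2.

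Gm8730 ranked first by its fitted differences but rests on a few libraries. The deposited tables list it as protein coding and describe it as a predicted pseudogene, and RefSeq lists it as a pseudogene, so its reads could be shared with a near-identical gene and its values are uncertain. It had 64, 38, 50 and 4 reads in rotarod libraries, against 50, 1, 0 and 2 reads in rest libraries. It had 66, 84, 0 and 1 reads in cKO libraries, against 0, 1, 0 and 0 reads in WT libraries. Reads were thus high in some libraries of 3 groups and near 0 in the others, and no fold is given. Within cKO and WT libraries 3 and 4 its difference was 0.28, from 1 read.

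**Figure D3:**
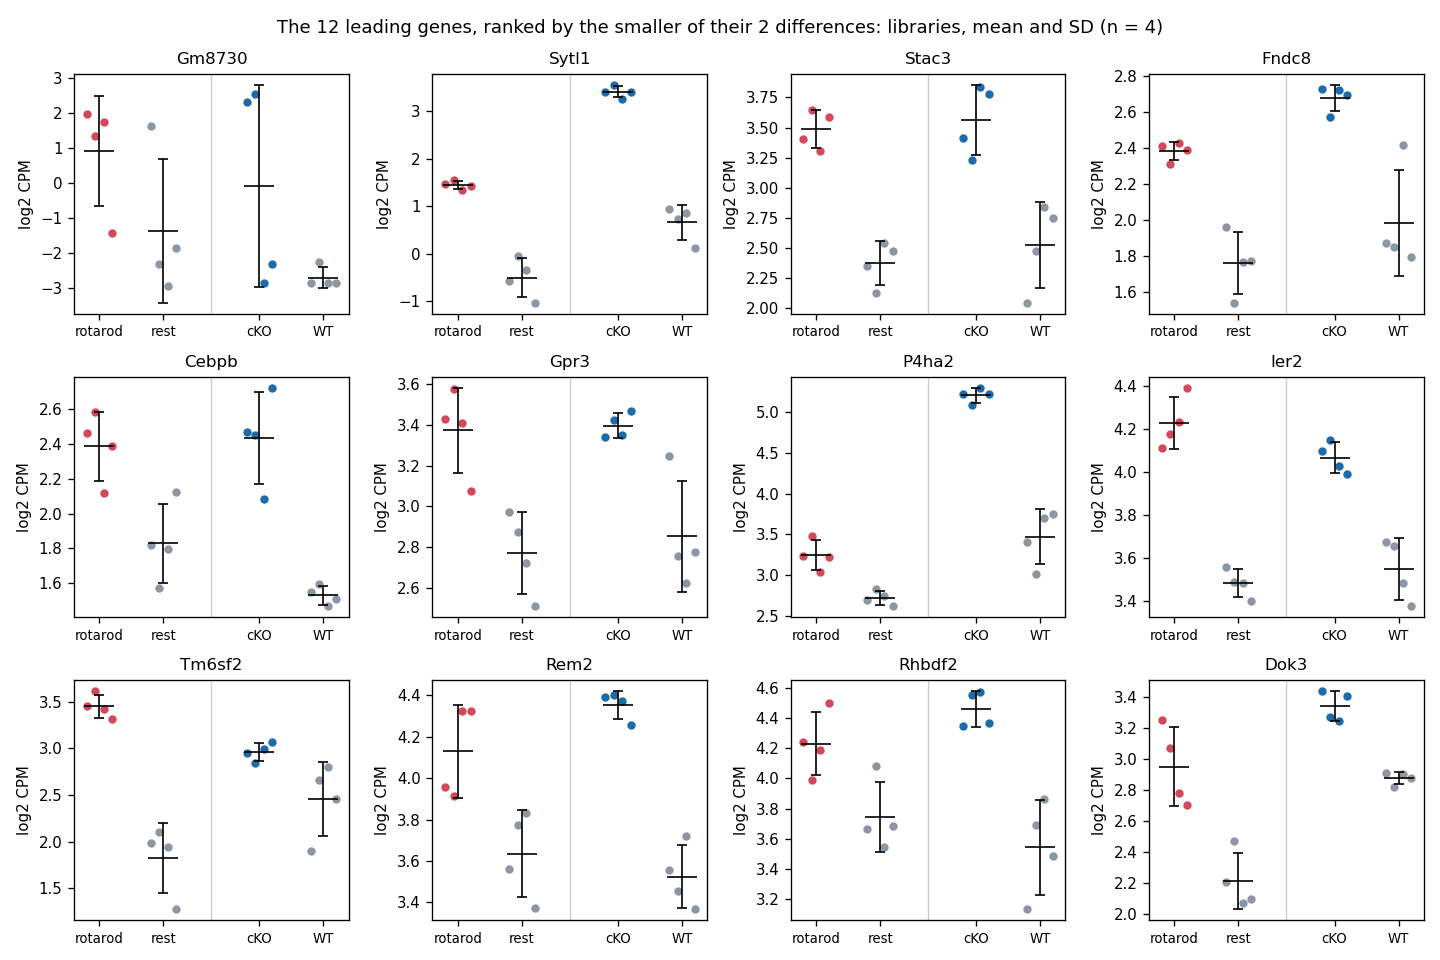
Log2 CPM in each library, with the mean and SD of 4 libraries, for the 12 genes ranked highest by the smaller of their differences, in rotarod, rest, cKO and WT libraries. Sytl1, Stac3 and Ier2 show groups well apart in both comparisons, Tm6sf2 a wider gap after rotarod, P4ha2 a wider gap in cKO, and Gm8730 libraries scattered from the floor to above 2.

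Several of the 54 genes belong to sets known to follow neuronal activity. Of 28 activity-regulated transcription factors, 19 rose and 0 fell after rotarod, and 12 rose and 5 fell in cKO, by the authors' test. The median difference of the listed ones was 1.41 after rotarod and 0.36 in cKO. Higher in both were 6 of them, Egr1, Ier2, Csrnp1 and Cebpb and, among the symbols left out, Fos and Fosl2. The 5 that rose after rotarod and fell in cKO are not members. Of 36 activity-regulated effectors, 21 rose and 1 fell after rotarod, and 12 rose and 6 fell in cKO, with medians of 0.75 and 0.35 among the listed ones. Of these, 7 were higher in both: Trib1, Rgs2, Btg2, Coq10b and, among the symbols left out, Dusp1, Dusp5 and Spry4. Another 3 effectors rose after rotarod and fell in cKO, and are not members. No median over all features can be had, since the tables hold called genes only, and the lists were drawn up with earlier results of these data known.

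Other response lists held few of the 54 genes. Of 22 glucocorticoid-responsive genes, 15 rose and 0 fell after rotarod, against 3 that rose and 4 that fell in cKO, and 0 are members. Of 20 heat shock and chaperone genes, 8 rose and 0 fell after rotarod and 3 rose and 7 fell in cKO, and Dnajb4 alone is a member. Btg2 is the member among 19 genes of the p53 response, of which 6 rose and 0 fell after rotarod and 4 rose and 3 fell in cKO. Of 14 hypoxia genes, 4 rose and 0 fell after rotarod and 0 rose and 4 fell in cKO. Of 20 clock genes, 3 rose and 0 fell after rotarod and 9 rose and 3 fell in cKO. Of 14 genes of the integrated stress response, 2 rose and 0 fell after rotarod and 8 rose and 1 fell in cKO, and of 24 synaptic vesicle genes 1 rose after rotarod and 10 rose and 8 fell in cKO. None of these 4 lists holds a member. The hypoxia list holds P4ha1, which rose after rotarod and fell in cKO, but was drawn up without its relative P4ha2, which is a member.

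Markers of cell types moved in cKO as well, and none of the 54 genes is among them. In cKO, 10 of 12 Purkinje cell markers fell and 0 rose, with a summed level of 7992 to 8581 CPM in cKO libraries and 9389 to 9966 CPM in WT libraries. Of 16 oligodendrocyte markers 9 fell, of 13 astrocyte markers 5, of 14 vascular markers 7, of 12 meningeal markers 8 and of 11 interneuron markers 7. Granule neuron markers were split, with 4 of 15 higher and 4 lower in cKO, and summed to 4621 to 4718 CPM in cKO libraries and 4518 to 4924 CPM in WT libraries. Of 12 microglia markers 1 rose, and so did 1 of the 11 interneuron markers. Of 6 unipolar brush cell markers 1 rose and 4 fell, of 8 choroid plexus markers 3 fell, and of 8 red blood cell markers 1 rose and 1 fell. The 7 listed vascular markers, all lower in cKO, summed to 159.8 to 182 CPM in cKO libraries and 202 to 236 CPM in WT libraries. After rotarod, 5 of 12 meningeal markers fell, with sums of 98.7 to 133 CPM in rotarod libraries and 147 to 186 CPM in rest libraries, and 1 granule neuron and 1 astrocyte marker fell, while 1 vascular, 1 unipolar brush cell and 1 red blood cell marker rose. Markers that are not in a table have no value there, so each sum covers the listed markers only. Where all listed markers of a type fell, their sum had to be lower and is no separate measure. The part of the mix of cells in the differences of the 54 genes was not tested.

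The cKO difference could also be read within pairs of libraries. It was above 0 for all 54 genes within libraries 1 and 2 (median 0.38) and within libraries 3 and 4 (median 0.33). The same libraries chose the genes, so this sign was largely set by the choice and is no independent check. Gcn1l1 had 0.52 in libraries 1 and 2 and 0.02 in libraries 3 and 4. Zswim6 had 0.08 in libraries 1 and 2 and 0.39 in libraries 3 and 4. Egr1 and Rtn4r had 0.31 and 0.34 in libraries 1 and 2 and 0.17 and 0.07 in libraries 3 and 4. P4ha2 had 1.94 in libraries 1 and 2 and 1.53 in libraries 3 and 4. The values of Stac3, Cebpb and Mknk2 lay within 0.05 of each other: 1.06, 0.89 and 0.56 in libraries 1 and 2, and 1.02, 0.91 and 0.56 in libraries 3 and 4. Against the difference over all libraries, Rgs2, Csrnp1 and AU022252 were lower by over 1.5 times in libraries 1 and 2 (0.25, 0.24 and 0.16), and Bcorl1, Unc119b and Plekhm1 in libraries 3 and 4 (0.20, 0.17 and 0.12).

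**Figure D4:**
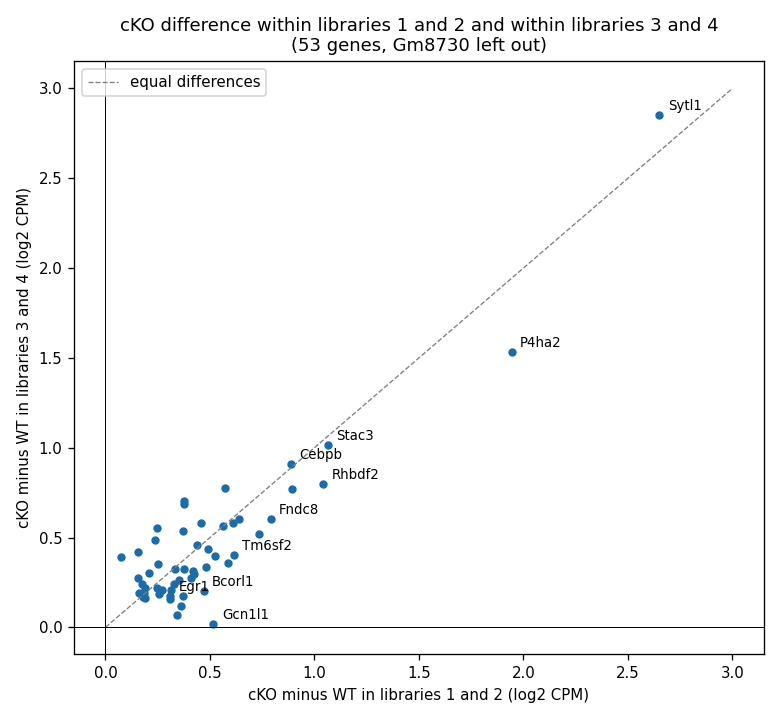
Difference of cKO minus WT (log2 CPM) within libraries 1 and 2 (x axis) and within libraries 3 and 4 (y axis) for 53 genes, with Gm8730 left out and a dashed line of equal differences. All points lie above 0 on both axes, Sytl1 and P4ha2 stand apart at the upper right, and Gcn1l1 lies nearest 0 on the y axis.

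WT and rest libraries carry the same genotype and age but stand in separately normalized tables. The WT level was above the rest level for 38 of the 54 genes, with a median difference of 0.20, against 0.12 over all 322 genes in both tables. It was above it for Sytl1 (1.17), P4ha2 (0.75) and Dok3 (0.66), and below it for Btg2 (-0.42), Mknk2 and Phf21b (-0.40 each) and Egr1 (-0.38). No library links the tables, so these levels were not compared further.

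Sync-TRAP libraries were a measure that the choice of genes did not use, as were the chromatin samples, which were not analysed here. They hold ribosome-bound RNA pulled down at postnatal day 12, 6 days after electroporation, with 3 libraries a group. The authors' deposited tables list 38 genes for IP cKO against IP WT (0.147% of those tested) and 51 genes for IP WT against input WT (0.195%). None of the 54 genes is in either table. With so small a share of all genes listed, this absence says little about them. The tables hold called genes only, so no value of the 54 genes in these libraries was used here.

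**Figure D5:**
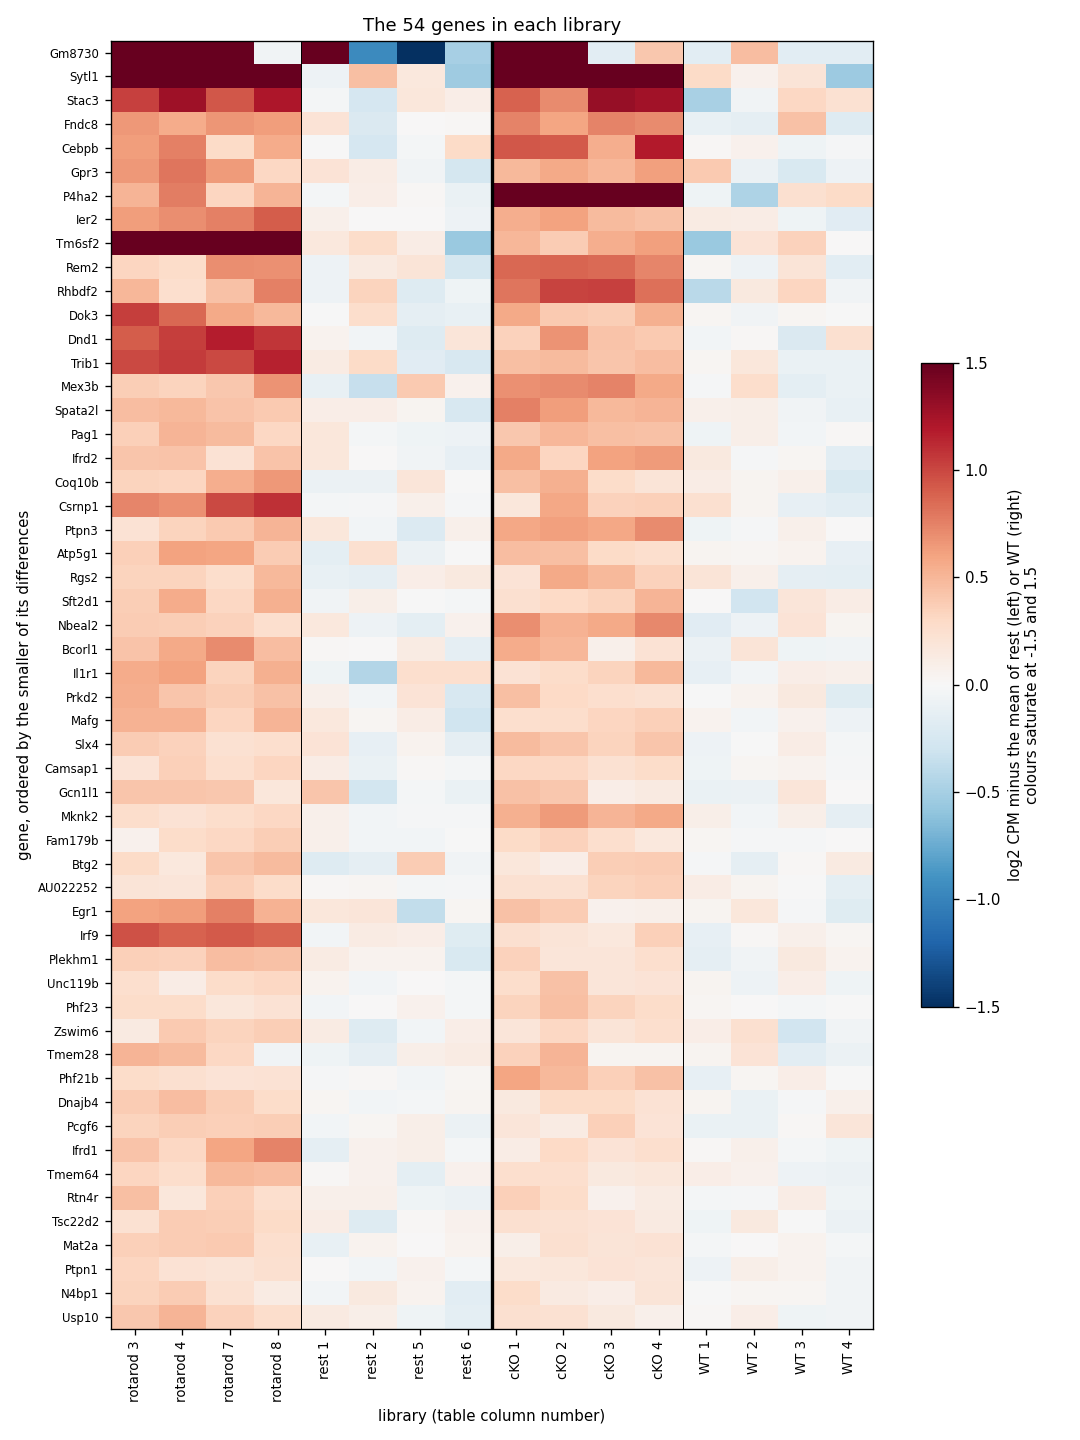
Each of the 54 genes (rows, ordered by the smaller of its differences) in each library, as log2 CPM minus the mean of rest (rotarod and rest libraries, left) or of WT (cKO and WT libraries, right), with colours that saturate at -1.5 and 1.5. Rotarod and cKO libraries are red for nearly all genes, the Gm8730 row is uneven within groups, and the colour fades from the top to the bottom rows.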

How the data were processed

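The 16 mRNA libraries were used (4 rotarod, 4 rest, 4 cKO, 4 WT). The deposited gene tables hold log2 CPM per library with the authors' log2 fold change, p-value and adjusted p-value, per the file headers. Bowtie, edgeR, SICER, bedtools and build mm9 are named in the submitters' processing notes, with no version, and the filters are not stated. By the deposited p-values, each table keeps only genes with an adjusted p under 0.05. The ratio of adjusted p to p, times the rank, put the features tested near 26900 (rotarod) and 27100 (cKO). Repeated lines were removed (913 lines became 908 genes, 5557 became 5508).

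Members were chosen by the sign of the difference of group means in both tables. Members, roles and the 22 gene lists were chosen with earlier results of these data known, and roles after gene names were seen. No test was run on the members. Means, SDs and standard errors were computed from the deposited log2 values (Python 3.11.15, pandas 2.3.3, numpy 2.4.6). With the floor removed, low values were whole multiples of 1 read (100% within 0.1 read), which gave depths and reads. The rule was tested on simulated data with shifts of 1 log2 unit, larger than most differences of the members, and with no step that called genes. Smaller shifts were not tried.

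Values in every library are printed for the 12 genes with the largest smaller difference and for members of the lists, and other genes by their differences. The numbers of rotarod and rest columns could not be matched to titles, and only their group is used. Alternatives left out libraries, changed pseudocount, scaling, thresholds and symbols. The region lists are on mm9 and the reference on GRCm38, so they were not joined to genes. Chromatin samples were not analysed here.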

Additional observations from a re-analysis of the deposited data

Results flagged for a closer look

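In 9 of 216 groups of 4 libraries (4.17%), 1 library lay far from the other 3, where chance alone would do so in about 1 in 20. After rotarod, library 7 was low for Ifrd2 (3.43 log2 CPM, the others 3.63 to 3.65) and for Mafg (6.76, the others 6.95 to 6.97), and library 8 was low for Gcn1l1 (6.91, the others 7.15 to 7.17). At rest, library 6 was low for Spata2l (4.25, the others 4.55 to 4.60) and library 5 high for Csrnp1 (3.04, the others 2.94 to 2.95). In WT, library 3 was high for Fndc8 (2.42, the others 1.79 to 1.87), library 2 high for Bcorl1 (5.41, the others 5.13 to 5.17) and library 4 low for Atp5g1 (4.33, the others 4.48 to 4.51). Gm8730 in WT library 2, at -2.26, held 1 read while the others sat at the floor of -2.87.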

How the results depend on the processing

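The number of genes was 54 without each library in turn, from linear means, after recentring, and within cKO and WT libraries 1 and 2 or 3 and 4. These settings reapplied only the sign to genes already called from all libraries, so the number could hardly change. The number was 27 at an adjusted p under 0.01 in both authors' tables, 9 with differences of at least 0.5 in both, 26 at or above the median abundance of both tables, 69 with no symbol left out and 60 with all gene types. The median difference was 0.39 to 0.44 (rotarod minus rest) and 0.32 to 0.37 (cKO minus WT) without each library in turn. A pseudocount of 5 CPM gave 0.33 and 0.28, and the abundant genes alone gave 0.34 and 0.27. Recentring each library on the median of its listed genes, a shift of 0.09 (rotarod) and 0.10 (cKO), gave 0.34 and 0.26, and moved the genes with no overlap in both comparisons to 17, against 37 as deposited and 38 to 42 without each library in turn. Leaving a library out can only keep or raise the number of genes with no overlap. No gene's difference turned its sign under any alternative run, and 85 of 1296 single values moved by more than the spread between libraries.

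As a replicate block, 43 genes had every cKO library above the WT library of the same number and no overlap after rotarod. Deviations of same-numbered libraries correlated at 0.10, 0.16, 0.13 and 0.08, so the numbers were not taken as pairs. cKO library 4 correlated best with WT library 3. Of the 54 genes, 51 were higher in all 4 numbered pairs, with the share of other genes not computed for this or for the block. The depth leaves Gm8730, with 0 or 1 read in most WT and rest libraries, without a usable fold.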
